A study of Mus musculus with 12 samples.

Results

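Cells of the intra-aortic haematopoietic clusters past G1 (in the phases S, G2 and M, written S/G2/M) were compared with those in G1 in mouse embryos at E11.5, a stage counted in days of gestation. The comparison rests on 6 of the 12 sequenced samples, 3 per phase, and on 12414 of 24138 genes, which are the genes the authors tested in this comparison. G1 cells came from Fucci Red embryos, which carry the mKO2 reporter. S/G2/M cells came from Fucci Green embryos, which carry mAG. Both lines are on the C57BL/6 strain, and the source was the AGM (aorta-gonad-mesonephros region), from which SSEA-1-negative, CD31-positive, CD117-positive cells were sorted for both groups. Phase and reporter line therefore coincide, and their effects cannot be told apart. Each gene has a single deposited FPKM value for each group, without a spread over the 3 samples, and the read depth is unknown. FPKM is a level scaled to transcript length and to the number of reads, so levels can also be set side by side between genes. Separate litters are not named in the labels, so the authors' p-values reflect at most sample spread, which can be technical.

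The clusters are knots of round cells that bulge from the inner aortic wall of the embryo. They arise from haemogenic endothelium and contain the first blood stem cells and their precursors. The Fucci reporters are fragments of cell cycle proteins fused to fluorescent proteins: a fragment of CDT1 lets mKO2 accumulate in G1, and a fragment of geminin lets mAG accumulate in S, G2 and M. In dividing cells the genes of DNA replication are turned on at the start of S phase. Those of mitosis follow in G2, when the repression bound at their promoters through cell cycle elements is lifted. Macrophages are among the first blood cells of the embryo. They engulf dying cells, digest them in lysosomes, recycle haem iron and are a main source of the complement protein C1q.

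Genes of cell division, several regulators of blood stem and progenitor cells and the myeloid granule enzyme gene Mpo were higher in S/G2/M cells at E11.5. Genes of macrophages, C1q, lysosomes and the uptake of dying cells were higher in G1 cells, and so were embryonic globin genes. In the authors' deposited table, 87 genes, or 0.701% of those tested, had a q-value under 0.05, and such genes are said here to have risen or fallen in S/G2/M. Of these, 17 rose (0.137%) and 70 fell (0.564%). The 11 risen genes above 0 in both groups were between 2.43-fold and 5.48-fold higher, with a median of 3.64-fold. The 47 fallen genes above 0 in both groups were between 2.76-fold and 17.2-fold lower, with a median of 3.69-fold. The other 29 had a listed 0, which stood in G1 for 6 genes and in S/G2/M for 23. The q-values of the 87 ran from 0.0102, shared by 61 genes, to 0.0499 in the authors' deposited table. In a bulk sample, fewer cells of a type and less RNA per cell cannot be told apart. Over all tested genes the median log2 fold change was -0.06, with 5714 genes higher and 6700 lower in S/G2/M, and 19.2% of the genes differed by more than 1 on the log2 scale without regard to the test. In the authors' deposited table, 412 genes higher in S/G2/M (3.32%) and 615 lower ones (4.95%) had an unadjusted p below 0.05.

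**Figure D1:**
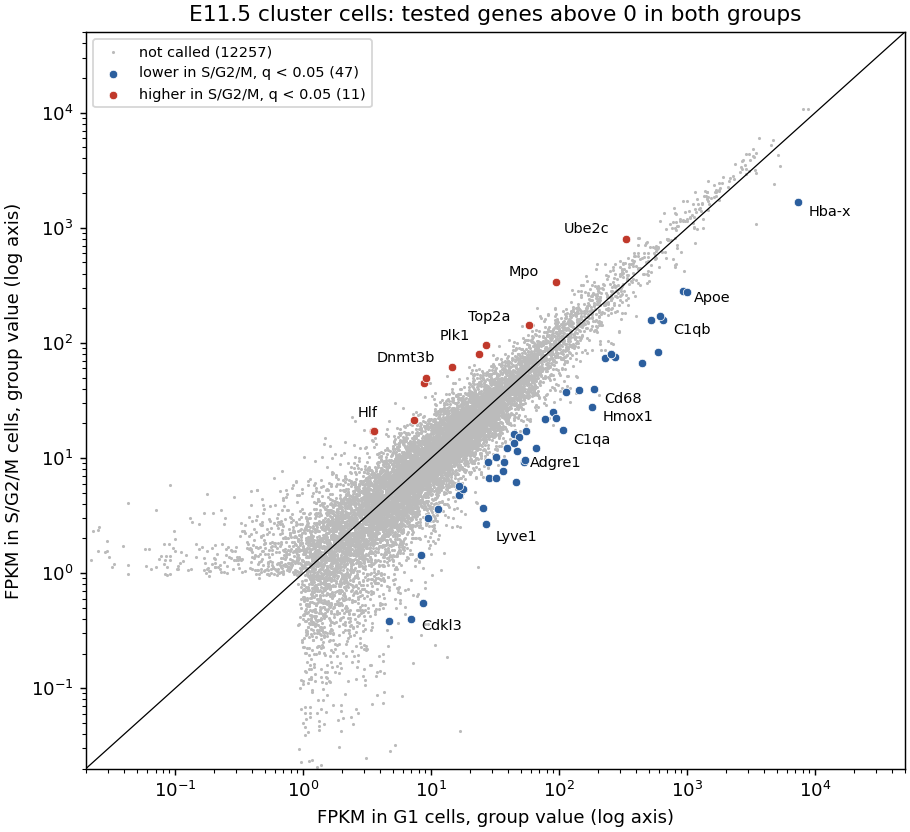
Group values in FPKM of the 12315 tested genes above 0 in both groups at E11.5, G1 on the x axis and S/G2/M on the y axis, both logarithmic, with the line of equal values; a few very low values lie beyond the axes. The 11 risen genes (red) lie above the line from Hlf at 3.47 and 17.1 FPKM to Ube2c at 330.1 and 803 FPKM, and the 47 fallen genes (blue) lie below it, with Hba-x at 7312 and 1674 FPKM the most abundant.

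The genes behind the sort were measured in both groups. Pecam1, which encodes CD31, had 111 FPKM in G1 against 69.9 FPKM in S/G2/M. Kit, which encodes CD117, had 16.9 and 28.9 FPKM. The endothelial cadherin gene Cdh5 had 241 and 192 FPKM, and the haemogenic transcription factor gene Runx1 had 26.6 and 39.6 FPKM. Fut4, which encodes an enzyme that makes the SSEA-1 epitope, had 3.86 and 3.98 FPKM. None of these 5 passed, and Kit had an unadjusted p of 0.0394 in the authors' deposited table. The mouse genes from which the reporter fragments derive did not pass either, with Cdt1 at 24.3 and 20.3 FPKM and Gmnn at 22.1 and 31.5 FPKM. Their RNA is no check of the sort, which used the reporter proteins.

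Mitotic genes were higher in S/G2/M nearly throughout. Plk1 (chr7:122159437-122169875 in mm10), a kinase that drives entry into and passage through mitosis, rose 3.57-fold, from 26.8 to 95.8 FPKM, with q = 0.0102 in the authors' deposited table. Top2a (chr11:98992947-99024189), the topoisomerase that untangles replicated chromosomes, rose from 58.1 to 143 FPKM. Ube2c (chr2:164769929-164772902), which tags mitotic cyclins for destruction, rose from 330.1 to 803 FPKM and was the most abundant risen gene. These 3 were the risen members of a list of 63 tested genes of G2 and mitosis, of which none fell, where 0.137% of all tested genes rose. In that list 61 genes were higher in S/G2/M and the median log2 fold change was 0.99, against -0.06 over all tested genes. An unadjusted p below 0.05 was listed for 44 of the 63 in the authors' deposited table. The summed level of the list was 1824 FPKM in G1 against 3674 FPKM in S/G2/M. The 2 members lower in S/G2/M were Kif2c, at 18.7 and 17.5 FPKM, and Pttg1, at 15.3 and 10.9 FPKM. Outside the list, Aspm (chr1:139454773-139494088), a spindle pole protein gene, rose 2.92-fold, from 7.36 to 21.5 FPKM. Cdca5 (chr19:6085097-6091773), which encodes the cohesin protector sororin, rose 5.06-fold, from 8.83 to 44.7 FPKM.

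Of further mitotic genes that did not pass, Cdk1, Espl1 and Kpna2 lay just outside the threshold. Cdk1, the catalytic partner of cyclin B, had 22.4 and 57.6 FPKM with q = 0.0650 in the authors' deposited table. Espl1, which encodes separase, had 5.48 and 15.2 FPKM with the same q. Kpna2, an importin gene, had 126 and 287 FPKM with q = 0.0797 in the authors' deposited table. Spc25, of the kinetochore, had the list's largest log2 fold change among members that did not pass, 1.61, at 14.7 and 44.8 FPKM. Ccnb1, which encodes cyclin B1, had 30.6 and 63.8 FPKM. Mki67, which encodes the proliferation antigen Ki-67, had 67.6 FPKM in G1 against 78.1 FPKM in S/G2/M, a difference of 0.21 on the log2 scale. These last genes lay far from the threshold, with q = 0.201 for Spc25, 0.274 for Ccnb1 and 0.920 for Mki67 in the authors' deposited table.

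The promoters of the 5 risen cell division genes are shown because the cell cycle element through which mitotic genes are kept off in G1, called the CHR, can be looked for in them by its letters. Each run holds 250 bases before and 50 bases after the annotated start, read 5′ to 3′ on the gene's strand, from RefSeq on GRCm38.p6 (mm10). Capitals mark the CHR, spelled TTTGAA, and the CCAAT box, spelled CCAAT, which binds the activator NF-Y, on either strand, so that TTCAAA and ATTGG are capitals too. The windows are chr7:122159185-122159484 for Plk1 on the plus strand, chr11:99024140-99024439 for Top2a on the minus strand, chr2:164769679-164769978 for Ube2c on the plus strand, chr1:139454523-139454822 for Aspm on the plus strand and chr19:6084847-6085146 for Cdca5 on the plus strand.
Plk1: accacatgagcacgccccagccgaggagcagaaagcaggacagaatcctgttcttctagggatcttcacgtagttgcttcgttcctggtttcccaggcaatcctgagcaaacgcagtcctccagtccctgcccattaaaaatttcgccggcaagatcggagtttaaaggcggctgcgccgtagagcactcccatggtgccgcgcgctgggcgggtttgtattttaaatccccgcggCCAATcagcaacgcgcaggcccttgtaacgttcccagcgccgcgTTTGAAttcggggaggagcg
Top2a: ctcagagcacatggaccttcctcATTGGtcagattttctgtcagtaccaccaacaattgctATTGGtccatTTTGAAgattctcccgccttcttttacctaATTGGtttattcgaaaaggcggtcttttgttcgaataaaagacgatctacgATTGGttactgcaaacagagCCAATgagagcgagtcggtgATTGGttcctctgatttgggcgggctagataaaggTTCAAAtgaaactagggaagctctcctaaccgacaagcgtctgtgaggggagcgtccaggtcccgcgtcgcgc
Ube2c: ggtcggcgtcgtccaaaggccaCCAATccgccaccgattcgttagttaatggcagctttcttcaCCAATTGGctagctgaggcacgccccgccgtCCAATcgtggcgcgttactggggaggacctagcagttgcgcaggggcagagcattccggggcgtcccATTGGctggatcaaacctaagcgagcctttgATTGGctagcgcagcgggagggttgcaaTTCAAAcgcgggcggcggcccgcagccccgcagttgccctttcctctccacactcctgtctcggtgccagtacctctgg
Aspm: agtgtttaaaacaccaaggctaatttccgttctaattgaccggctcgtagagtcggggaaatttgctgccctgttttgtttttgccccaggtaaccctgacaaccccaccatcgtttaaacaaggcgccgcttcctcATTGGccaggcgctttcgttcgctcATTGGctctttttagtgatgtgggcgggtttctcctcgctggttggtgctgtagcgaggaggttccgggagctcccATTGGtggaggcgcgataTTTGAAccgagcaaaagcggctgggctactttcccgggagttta
Cdca5: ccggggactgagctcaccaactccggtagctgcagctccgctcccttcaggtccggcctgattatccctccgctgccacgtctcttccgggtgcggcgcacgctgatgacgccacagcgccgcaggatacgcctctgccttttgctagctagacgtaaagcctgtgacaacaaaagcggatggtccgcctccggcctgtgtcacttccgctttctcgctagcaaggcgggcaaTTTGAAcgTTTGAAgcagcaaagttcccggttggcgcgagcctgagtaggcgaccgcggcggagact

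Each of the 5 windows holds the CHR, once in Plk1, Ube2c and Aspm and at 2 places in Top2a and Cdca5. In Cdca5 both matches lie next to each other, beginning 17 and 9 bases before the start. The match in Ube2c begins 29 bases before the start, and those in Aspm and Plk1 begin 6 and 30 bases after it. The CCAAT box matches 6 times in Top2a, 6 times in Ube2c, 3 times in Aspm, 1 time in Plk1 and not in the window of Cdca5. A pair of the matches in Ube2c overlap. Of 17 risen genes, 12 had a window in the RefSeq table, and 8 of the 12 held the CHR: the 5 shown, Dnmt3b, Adgrg1 and Mpo. For the list of G2 and mitosis, 49 of 63 genes were matched, and 31 of the 49 had a window with the CHR. Counted over windows, 64.2% of the 53 windows of that list held it, against 10.4% of 48 windows of S-phase genes, 11.9% of 11929 windows of all tested genes and 17.9% of all 32851 windows in the table. The CCAAT box stood in 73.6% of the mitotic windows, 58.3% of the S-phase windows and 37.5% of those of all tested genes. Letters alone do not show that a site is bound, and a window without a match says only that these letters are not in it.

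Genes of DNA replication differed less than those of mitosis. None of the 52 tested genes of S phase passed, 38 of them were higher in S/G2/M, and the list median was 0.24. In the authors' deposited table, 3 had an unadjusted p below 0.05, and they are the first 3 named here. Dut, which keeps uracil out of DNA, had 21.7 and 52.8 FPKM. Tk1, the thymidine kinase of S phase, had 21.0 and 49.9 FPKM. Rpa2, of the single-strand binding complex, had 16.7 and 35.8 FPKM. Pcna, the replication clamp, had 267 and 316 FPKM. The replication-dependent histone genes, whose RNA builds up in S phase, had a higher median, 0.84, over 57 tested genes. Of these 52 were higher in S/G2/M, none passed, and 18 had an unadjusted p below 0.05 in the authors' deposited table. Their summed level was 10769 FPKM in G1 against 19245 FPKM in S/G2/M, with Hist1h1e, a linker histone gene, at 1146 and 2058 FPKM. Histone genes share sequence, so their levels depend on how shared reads were assigned.

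Among 27 tested genes for cell cycle inhibitors and G1 regulators none passed, and 12 were higher and 15 lower in S/G2/M. The antiproliferative genes Btg2 (9.75 and 2.06 FPKM), Tob1 (16.4 and 5.33 FPKM) and Cdkn1a (52.3 and 21.0 FPKM) were lower in S/G2/M, each with an unadjusted p below 0.05 and no q under 0.05 in the authors' deposited table. Cdkn1a encodes the kinase inhibitor p21. Cdk6, a G1 kinase, had 20.7 and 58.0 FPKM with q = 0.104 in the authors' deposited table. Cdkn1c, which encodes the kinase inhibitor p57, had 121 and 94.5 FPKM.

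Blood stem and progenitor regulators formed the other group of risen genes. Hlf (chr11:90336535-90390917), a transcription factor of stem cells, rose 4.93-fold, from 3.47 to 17.1 FPKM. Dnmt3b (chr2:153649449-153687730), which sets DNA methylation on previously unmethylated sites, rose 4.20-fold, from 14.6 to 61.4 FPKM. Adgrg1 (chr8:94977109-95014208), an adhesion receptor of stem cells also known as Gpr56, rose 3.34-fold, from 23.7 to 79.4 FPKM. These are among the 4 risen members of 59 tested genes of this list, of which none fell, where 0.137% of all tested genes rose. Like the other lists, it was chosen with earlier results of these data known, so these shares are no test of it. The list median was 0.38, with 40 genes higher and 19 lower in S/G2/M. In the authors' deposited table, 15 of the 59 had an unadjusted p below 0.05 and were higher, and 1 was lower, where the shares of all tested genes were 3.32% and 4.95%. Among those 15, Myb, needed for definitive haematopoiesis, had 13.8 and 31.0 FPKM, and Mycn, a relative of Myc, had 12.9 and 29.5 FPKM. Spn, which encodes the leukocyte surface protein CD43, had 2.78 and 12.2 FPKM, and Itga2b, which encodes CD41, had 1.69 and 7.30 FPKM. Runx3 had 2.55 and 10.2 FPKM. The lower member was Cd33, a myeloid receptor gene, at 44.6 and 22.2 FPKM.

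Other regulators of the same list did not pass, and they differed in both directions. Gata2 had 19.3 and 21.9 FPKM, and Cd34, a surface marker of progenitors and endothelium, had 166 and 191 FPKM. Mecom, a stem cell factor also made by arterial endothelium, had 9.35 and 5.48 FPKM in the more abundant of its 2 gene models, and Procr, which encodes a receptor marking stem cells, had 12.1 and 9.18 FPKM. Gfi1, a repressor that acts in the endothelial-to-haematopoietic transition, was low, at 0.250 and 1.63 FPKM. Spi1, which encodes the myeloid factor PU.1, had 107 and 79.6 FPKM, and Ptprc, which encodes CD45, had 29.9 and 19.3 FPKM. None of these 7 had an unadjusted p below 0.05 in the authors' deposited table.

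In each of the granulocyte, megakaryocyte and lymphoid lists 1 gene rose, where 0.137% of all tested genes rose and 0.564% fell. Mpo (chr11:87793784-87804412), myeloperoxidase of the azurophil granule, rose 3.64-fold, from 93.7 to 341 FPKM, making it the second most abundant risen gene. Prtn3, which encodes a protease of that granule, had 13.2 and 51.8 FPKM and did not pass. S100a8, a calcium-binding protein gene of neutrophils and monocytes, fell, from 13.1 FPKM in G1 to a listed 0 in S/G2/M, so the list of 14 tested granulocyte and mast cell genes had 1 risen and 1 fallen member. In it 5 genes were higher and 9 lower in S/G2/M, and the median of -0.38 turned to 0.32 where the higher group had to reach 5 FPKM. Of 26 tested megakaryocyte genes 1 rose and 20 were higher in S/G2/M, with a median of 0.46. Gp5, of the platelet receptor for von Willebrand factor, had 1.54 and 8.41 FPKM, and Itgb3 had 17.2 and 33.5 FPKM. Pf4, a platelet chemokine gene that embryonic macrophages also express, had 270.5 and 303 FPKM. Among 19 tested lymphoid genes, Cd7 rose from a listed 0 to 2.59 FPKM, with 11 members higher and 8 lower and a median of 0.05. Bcl11a, a lymphoid and erythroid repressor gene, had 15.3 and 44.4 FPKM without passing. Tox (chr4:6687386-6990723), a nuclear factor gene known from T cell development and outside these lists, rose 4.79-fold, from 3.58 to 17.1 FPKM.

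**Figure D2:**
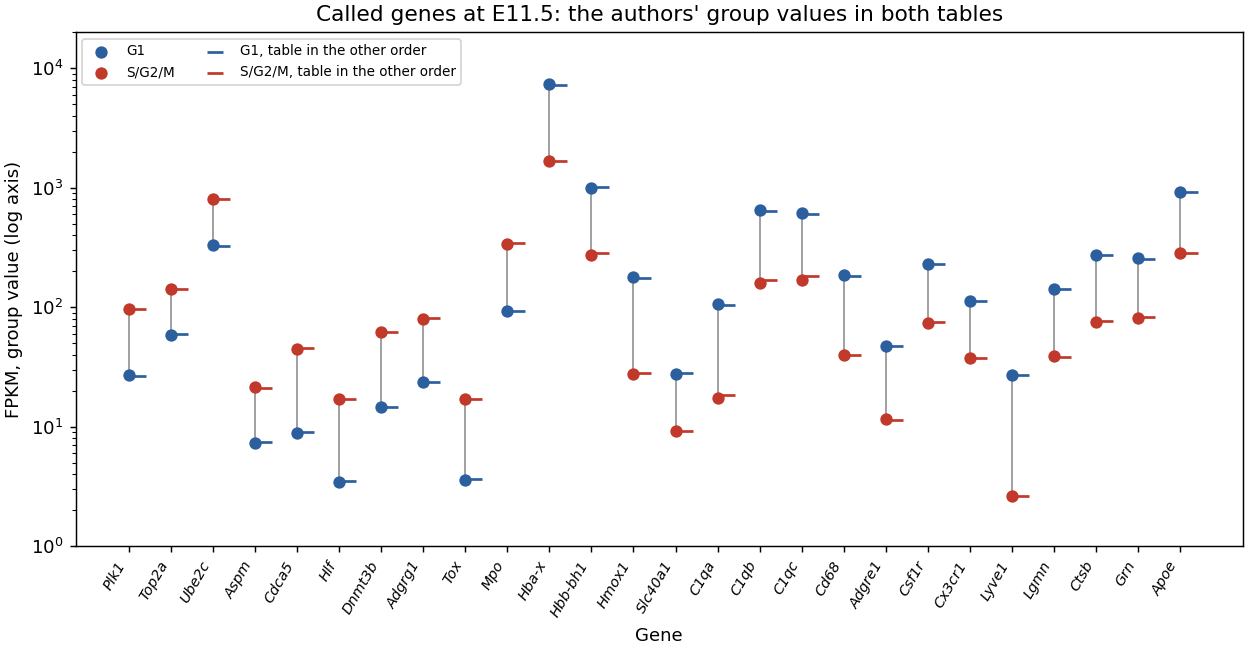
Group values in FPKM, on a log axis, of 26 called genes at E11.5, with G1 in blue and S/G2/M in red. Filled points give the table used here and dashes the values deposited with both groups swapped; the genes from Plk1 to Mpo are higher in S/G2/M, those from Hba-x to Apoe are higher in G1, and both tables give nearly the same levels.

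Macrophage genes were on the G1 side. Of 34 tested macrophage and monocyte markers 5 fell, where 0.564% of all tested genes fell, none rose, and 33 were lower in S/G2/M, with a median log2 fold change of -1.31 against -0.06 over all tested genes. In the authors' deposited table, 19 of the 34 had an unadjusted p below 0.05. Cd68 (chr11:69664213-69666170), a lysosomal glycoprotein gene, fell 4.67-fold, from 186 to 39.9 FPKM. Adgre1 (chr17:57358686-57483529), which encodes the macrophage antigen F4/80, fell 4.07-fold, from 47.1 to 11.6 FPKM. Csf1r, the receptor for macrophage growth factor, fell 3.10-fold, from 228 to 73.5 FPKM. Cx3cr1 (chr9:120048683-120068296), a chemokine receptor of yolk sac derived macrophages, fell 3.02-fold, from 112 to 37.2 FPKM. Lpl (chr8:68880555-68906932), lipoprotein lipase, fell 4.03-fold, from 37.2 to 9.24 FPKM. The remaining markers had a q above 0.05 in the authors' deposited table. Among them were Fcer1g at 947 and 424 FPKM and Tyrobp at 810.2 and 456 FPKM, both encoding signalling adaptors, and the mannose receptor gene Mrc1 at 115 and 42.3 FPKM. Timd4, a receptor for dying cells, had 13.2 FPKM in G1 against 0.188 FPKM in S/G2/M, which did not pass. The marker higher in S/G2/M was Pf4. The summed level of the list was 4282 FPKM in G1 against 2196 FPKM in S/G2/M. The abundant members Fcer1g and Tyrobp weigh heavily in that sum, and Pf4 is also on the megakaryocyte list. Levels in S/G2/M differed widely between members, with Timd4 at 0.188 FPKM, Adgre1 at 11.6 FPKM and Csf1r at 73.5 FPKM.

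Macrophages are another cell type than cluster cells, and the sort kept CD31-positive, CD117-positive cells without a marker against macrophages in the labels. Of the defining markers, Cd163 and Vsig4 were at or near 0 in both groups, with Cd163 at 0.0203 FPKM and 0 and Vsig4 at 0 in both. Cbr2 was listed at 0 in S/G2/M and had 1.28 FPKM in G1. What part macrophages had in the other differences was not tested. Outside the macrophage list, 5 genes that macrophages are known to express fell as well. They are Mpeg1, a pore-forming protein gene, at 76.8 and 21.8 FPKM, the receptor gene P2ry6 at 95.1 and 22.1 FPKM and the Fc receptor-like gene Fcrls at 89.7 and 25.2 FPKM, together with Ms4a6d at 45.7 and 6.13 FPKM and Cmklr1, a chemerin receptor, at 53.0 and 9.16 FPKM. These 5 were picked after their values were seen.

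The 3 genes of the complement protein C1q lie side by side within 18.7 kb of chromosome 4, and all of them fell. C1qb (chr4:136880145-136886177) fell 4.07-fold, from 645 to 158 FPKM. C1qc (chr4:136889802-136892914) fell 3.63-fold, from 617 to 170 FPKM. C1qa (chr4:136895916-136898844) fell 6.06-fold, from 106 to 17.5 FPKM. Their proteins assemble into 1 molecule that opens the classical complement pathway and tags dying cells. Of 19 tested complement genes 4 fell, the 3 of C1q among them, against 0.564% of all tested genes, none rose, and 17 were lower in S/G2/M, with a median of -0.89. The receptors for the complement fragments C3a and C5a missed the threshold, with C3ar1 at 91.8 and 30.9 FPKM (q = 0.0546) and C5ar1 at 43.9 and 13.3 FPKM (q = 0.0633) in the authors' deposited table. Itgam, a chain of the complement receptor CR3, had 38.2 and 20.8 FPKM. Cd93, a membrane protein once named as a C1q receptor and also made by endothelium, had 142 and 112 FPKM.

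The promoters of C1qb, C1qc and Cd68 are shown, as fallen genes whose windows hold a match, because PU.1, the factor encoded by Spi1, is known for switching on macrophage genes through sites with a GAGGAA core. Capitals mark that core on either strand, so TTCCTC is a match too, and each run again holds 250 bases before and 50 bases after the annotated start from RefSeq on GRCm38.p6. The windows are chr4:136886151-136886450 for C1qb, chr4:136892865-136893164 for C1qc and chr11:69666121-69666420 for Cd68, all on the minus strand.
C1qb: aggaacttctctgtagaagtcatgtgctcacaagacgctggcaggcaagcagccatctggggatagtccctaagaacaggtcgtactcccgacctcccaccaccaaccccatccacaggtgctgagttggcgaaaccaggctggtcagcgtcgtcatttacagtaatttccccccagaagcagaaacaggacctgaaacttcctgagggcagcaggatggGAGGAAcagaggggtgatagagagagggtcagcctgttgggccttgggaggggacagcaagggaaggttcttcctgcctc
C1qc: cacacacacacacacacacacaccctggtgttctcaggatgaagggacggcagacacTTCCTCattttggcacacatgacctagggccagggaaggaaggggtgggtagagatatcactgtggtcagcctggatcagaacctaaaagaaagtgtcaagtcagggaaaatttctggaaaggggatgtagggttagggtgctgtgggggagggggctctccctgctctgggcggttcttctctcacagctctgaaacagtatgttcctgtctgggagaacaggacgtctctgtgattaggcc
Cd68: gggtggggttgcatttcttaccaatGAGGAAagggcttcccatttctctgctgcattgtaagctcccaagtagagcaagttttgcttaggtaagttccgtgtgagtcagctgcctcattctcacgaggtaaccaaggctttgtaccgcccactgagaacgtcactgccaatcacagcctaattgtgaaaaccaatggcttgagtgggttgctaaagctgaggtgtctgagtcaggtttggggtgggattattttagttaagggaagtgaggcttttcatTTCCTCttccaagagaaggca

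The core stands 30 bases before the start in C1qb, 193 bases before it in C1qc, and in Cd68 at 225 bases before and 29 bases after it. Of the macrophage list, 53.8% of 26 windows held the core, against 27.2% of 11929 windows of all tested genes and 28.3% of all windows in the table. For the fallen genes above 0 in both groups the share was 42.4% of 33 windows, from 26 matched genes of 47. For the risen genes it was no lower, 46.2% of 13 windows, with 6 of 12 matched genes holding the core. Cx3cr1, a fallen macrophage marker, has no match in its window, and Mpo, a risen gene, has 2. The CHR, counted in the same windows, stood in 24.2% of those of the fallen genes above 0 in both groups. It stood in 19.2% of those of the macrophage list, and both shares are above the 11.9% of all tested genes. With the fallen genes listed at 0 included, the PU.1 core stood in 38.5% and the CHR in 15.4% of 52 windows. The core is short and common, and a match is no evidence of binding.

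Lysosomal genes fell or were lower in S/G2/M along with the macrophage genes. Of 54 tested lysosomal genes 4 fell, against 0.564% of all tested genes, none rose, and 50 were lower, with a median of -0.90. The 4 were Cd68, which is on both lists, Ctsb, Lgmn and Grn. Ctsb (chr14:63122462-63179578), the protease cathepsin B, fell 3.66-fold, from 274 to 74.9 FPKM. Its model overlaps Fdft1, and no source used here says whether reads were counted by strand. Fdft1 had 26.9 and 21.9 FPKM. Lgmn (chr12:102394098-102439697), the protease legumain, fell 3.69-fold, from 143 to 38.8 FPKM. Grn (chr11:102430322-102436809), which encodes progranulin, fell 3.18-fold, from 256 to 80.6 FPKM. In the authors' deposited table, 25 of the 54 had an unadjusted p below 0.05, each lower in S/G2/M, such as cathepsin D, Ctsd, at 400.1 and 170.2 FPKM and Lamp1, a membrane glycoprotein gene, at 303 and 160 FPKM. Members close to equal were Cd63, at 108 and 103 FPKM, and Laptm5, at 411 and 330 FPKM. The CLEAR element, through which the factor TFEB is known to switch on lysosomal genes, has the core CACGTGAC. It was found on either strand in 20.4% of 49 lysosomal windows and 4.10% of the windows of all tested genes. For the fallen genes above 0 in both groups the share was 6.06% of 33 windows. Lgmn has 1 match, which begins 51 bases before 1 of its 2 annotated starts, and the window of Grn has no match.

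Receptors and bridging proteins for dying cells and debris showed the same direction, in a list that shares members such as Timd4 with the macrophage list. Of 32 tested genes of phagocytosis and scavenging 4 fell, against 0.564% of all tested genes, none rose, and 30 were lower in S/G2/M, with a median of -1.27. Lyve1 (chr7:110850607-110862953), a hyaluronan receptor of lymphatic endothelium and of some macrophages, fell 10.1-fold, from 26.9 to 2.65 FPKM. Gas6 (chr8:13465374-13494535), the ligand that links phosphatidylserine on dying cells to TAM receptors, fell 4.73-fold, from 31.8 to 6.73 FPKM. Of the TAM receptors, Axl had 13.6 and 3.06 FPKM (q = 0.0546) and Mertk had 9.91 and 2.96 FPKM (q = 0.440) in the authors' deposited table. Dab2, an endocytic adaptor gene, fell 3.19-fold, from 255 to 80.04 FPKM. Lrp1, which encodes a large scavenging receptor, fell 3.17-fold, from 32.0 to 10.1 FPKM. The integrin gene Itgb3 was 1 of the 2 members higher in S/G2/M.

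Of 33 tested genes of cholesterol synthesis, uptake and efflux 3 fell, against 0.564% of all tested genes, and none rose. In that list 10 were higher and 23 lower in S/G2/M, with a median of -0.23. Apoe (chr7:19696244-19699188), a lipid carrier protein abundant in macrophages, fell 3.29-fold, from 928 to 282 FPKM. Abca1, which exports cholesterol from cells, fell 2.76-fold, from 44.6 to 16.2 FPKM, and the third fallen member was Lpl. Sqle, an enzyme of synthesis, had 41.8 and 37.2 FPKM.

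Genes of haem breakdown and iron fell with them. Hmox1 (chr8:75093618-75100593), which opens the haem ring and frees its iron, fell 6.44-fold, from 179 to 27.8 FPKM. Slc40a1, the iron exporter ferroportin, fell 3.03-fold, from 27.7 to 9.15 FPKM. Trf, which encodes the iron carrier transferrin, fell 3.32-fold, from 44.4 to 13.4 FPKM, and Lrp1 is also on this list. Of 28 tested genes these 4 fell, against 0.564% of all tested genes, none rose, and 24 were lower, with a median of -0.71. Tfrc, the transferrin receptor, had 32.5 and 11.9 FPKM with q = 0.0650 in the authors' deposited table. The ferritin light chain gene Ftl1 had 4732 and 2410 FPKM and the heavy chain gene Fth1 had 1145 and 737 FPKM, neither passing.

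The 8 tested globin gene models were lower in S/G2/M, and 3 of them fell. Hba-x (chr11:32276600-32278115), the embryonic zeta chain, fell 4.37-fold, from 7312 to 1674 FPKM. Hba-a2 (chr11:32283675-32284493), an alpha chain, fell 6.64-fold, from 441 to 66.4 FPKM. Hbb-bh1 (chr7:103841638-103843162), an embryonic beta-like chain, fell 3.60-fold, from 990 to 275 FPKM. Hbb-y, the embryonic epsilon chain, had 3432 and 1081 FPKM with q = 0.0926 in the authors' deposited table. A second gene model of Hba-a2 had 206 and 34.9 FPKM and did not pass. The summed globin level was 12462 FPKM in G1 against 3167 FPKM in S/G2/M. Globin genes share sequence, so reads could be split between them. Of 34 further tested genes of red cell regulators, membrane and haem synthesis none passed, with 17 higher and 17 lower and a median of -0.18, which was 0.13 where the higher group had to reach 5 FPKM. Slc4a1, the anion exchanger of the red cell membrane, had 15.8 and 3.70 FPKM, and Gfi1b, a repressor of erythroid and megakaryocytic cells, had 2.41 and 22.9 FPKM. Globin RNA is carried by primitive red cells in the blood of the embryo, and its part in the other differences was not tested.

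**Figure D3:**
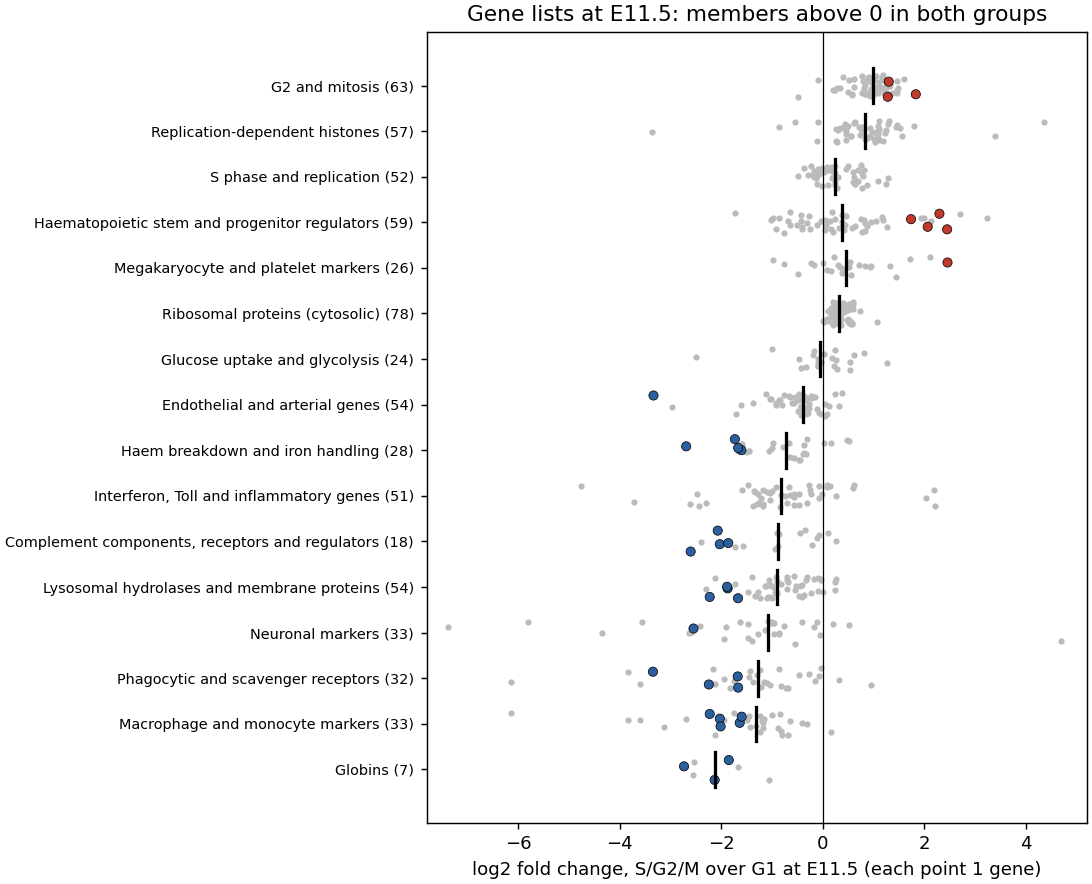
Log2 fold change, S/G2/M over G1 at E11.5, of the tested members above 0 in both groups of 16 gene lists, with their number in parentheses. Black bars are medians, red and blue points the risen and fallen genes, and gray points did not pass. The medians run from 0.99 for G2 and mitosis to -2.13 for globins, and the 78 ribosomal protein genes lie above 0, from 0.01 to 1.07.

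Endothelial genes were mostly lower in S/G2/M by small amounts. Of 54 tested endothelial and arterial genes 47 were lower, and the median was -0.40. The single member that fell was Lyve1, where 0.564% of all tested genes fell. The arterial genes Gja5 (25.8 and 8.49 FPKM) and Efnb2 (41.1 and 20.3 FPKM) had an unadjusted p below 0.05 and no q under 0.05 in the authors' deposited table. The abundant genes Aplnr (308 and 267 FPKM), Emcn (204 and 170 FPKM) and Sox18 (182 and 163 FPKM) differed by less than 0.3 on the log2 scale. Among 25 tested genes of the Notch pathway, which acts in arterial and stem cell fate, none passed, and the median was -0.30. The Notch target gene Hey1 had 39.6 and 21.0 FPKM.

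Interferon, Toll and inflammatory genes held no called member among 52 tested, but 43 were lower in S/G2/M, with a median of -0.82. In the authors' deposited table, 16 of them had an unadjusted p below 0.05 and were lower, and they include Tlr2, Tlr4, Tlr7 and Tlr9, receptors of innate immunity. Tlr7 had 28.3 and 11.2 FPKM, and Ly86, a partner of a Toll-like receptor, had 213 and 86.8 FPKM. Il1r1, a receptor for interleukin-1, was higher in S/G2/M, at 1.25 and 5.12 FPKM. Unc93b1, which escorts Toll-like receptors to endosomes and is outside that list, fell 5.44-fold, from 66.4 to 12.2 FPKM. Of 25 tested chemokine and chemokine receptor genes 2 fell, against 0.564% of all tested genes, and none rose. Ccl9 fell from 36.6 to 7.71 FPKM, and Cx3cr1 fell as given above. The abundant interferon-induced genes Ifitm2 (574 and 634 FPKM) and Ifitm3 (233 and 195 FPKM) were close to equal.

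Neuronal genes, markers of cells that the sort should not hold, were lower in S/G2/M for 30 of 33 tested members, with a median of -1.08. Ncan (chr8:70093085-70120844), a proteoglycan gene of neural tissue, was the one that fell, where 0.564% of all tested genes fell. Its level went down 5.84-fold, from 8.37 to 1.43 FPKM. The summed level of the neuronal genes was 410.0 FPKM in G1 against 239 FPKM in S/G2/M. Dcx, of migrating neurons, had 18.7 and 8.82 FPKM. No member passed among 33 mesenchymal, 14 epithelial, hepatic and urogenital, and 7 primordial germ cell markers tested. Of these lists, 1, 2 and 1 members had an unadjusted p below 0.05 in the authors' deposited table. The summed levels were 1215 and 1023 FPKM, 34.4 and 25.02 FPKM, and 269 and 245 FPKM in G1 and S/G2/M. The part of such cells in the differences was not tested.

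Ribosomal protein genes were higher in S/G2/M in 78 of 78 tested, with a median of 0.31 and none called by the authors' test (1 at an unadjusted p below 0.05 in the authors' deposited table). Their summed level was 132599 and 167529 FPKM. Centred on the median of all tested genes the list median is 0.38. Subunits of oxidative phosphorylation were higher in 67 of 78, with a median of 0.27 and none called, and Cyc1, which encodes cytochrome c1, had 72.4 and 165 FPKM. Glycolysis genes were balanced, with 11 higher and 13 lower of 24 and a median of -0.05, and Gapdh had 3398 and 3188 FPKM. Among 22 tested enzymes of DNA and histone methylation, Dnmt3b alone passed, where 0.701% of all tested genes passed. Its relatives Dnmt3a and Dnmt1 had 25.5 and 34.5 FPKM and 48.4 and 65.5 FPKM. No member passed among 21 antigen presentation genes and 31 immediate early and stress genes, and 0 and 3 of them had an unadjusted p below 0.05 in the authors' deposited table.

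Of the 87 called genes 36 were on a gene list and 51 on none. Cdkl3 (chr11:52004221-52084667), a kinase gene, had the largest fold among called genes above 0 in both groups and fell 17.2-fold, from 6.89 to 0.401 FPKM. That fold rests on a low S/G2/M value: with a pseudocount of 1 FPKM the log2 fold change of Cdkl3 was -2.49, and that of Lyve1 was -2.93. Tmem8b fell from 8.68 to 0.553 FPKM and the potassium channel gene Kcnj10 from 4.70 to 0.382 FPKM. Rpph1 (chr14:50807447-50807771), the RNA component of ribonuclease P, fell 7.08-fold, from 593 to 83.8 FPKM. It is a short RNA, so its FPKM rests on few bases. AI607873 fell 6.87-fold, from 25.4 to 3.70 FPKM. Preb, a regulator of export from the endoplasmic reticulum, fell 5.63-fold, from 54.3 to 9.63 FPKM, and its model overlaps Abhd1, at 0.177 and 0.133 FPKM. Sepp1, a selenium carrier protein gene, fell 3.27-fold, from 520 to 159 FPKM. Ednrb, an endothelin receptor gene, fell from 55.5 to 17.3 FPKM. Further fallen genes above 0 in both groups were Mgat4a, Myo1f, Cndp2, Cln8, Pgap1 and Tulp4, between 2.86-fold and 3.40-fold lower. The models of Ncan, Csf1r and Mgat4a overlap other models too, those of Mir7066, Mir6983 and 4930594C11Rik.

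The genes listed at 0 in a group were low in the other. The 23 at 0 in S/G2/M had between 0.893 and 15.6 FPKM in G1, with a median of 1.57. The highest were Stfa2l1, a stefin gene, at 15.6 FPKM, S100a8 at 13.1 FPKM and Tnnc2, a troponin gene of fast muscle, at 6.52 FPKM. The others were Rufy4, Asic4, Pla2g12b, Diras1, Glp2r, Prss16, Nlrp1c-ps, Nhlrc4, Ppp1r3c, Rbm20, Rasl11a, Pilrb1, Pilrb2, Actl6b, Galnt9, Bhlha15, Ascl2, Gsg1l, Klf15 and Fsd2. The 6 at 0 in G1 had between 0.954 and 4.12 FPKM in S/G2/M. They were Ctrl, which encodes a pancreatic protease, at 4.12 FPKM, the potassium channel gene Kcnk12 at 3.39 FPKM, Cd7, Arl14epl, 2010107G23Rik and A730036I17Rik. Without counts, a listed 0 gives no fold and no limit of detection.

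A second deposited table compares these groups in the other order, and in it 80 of 12344 tested genes (0.648%) had a q under 0.05. Of the 91 genes called in either table, 76 were called in both, and the group levels differed little between the tables. Over 8372 genes of at least 5 FPKM in G1 the median absolute log2 ratio between the tables was 0.016, and over 8066 genes in S/G2/M it was 0.014. Cdca5 was the risen gene not called in the other table (q = 0.0527 in the authors' deposited table), with 8.98 and 45.2 FPKM there. Among the fallen genes not called there were Glp2r, Klf15, Pilrb1, Kcnj10, Myo1f, Cndp2, Cln8, Pgap1 and Slc40a1, and Glp2r and Klf15 were not tested in it. Called in the other table and not here were Slc22a3, an organic cation transporter gene, at 2.53 and 20.8 FPKM here, and the lower genes Sowahc, C3ar1 and Tfrc. In that table C3ar1 had 92.9 and 30.5 FPKM with q = 0.0209, and Tfrc had 33.3 and 11.7 FPKM with q = 0.0463, by the authors' deposited table.

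At E10.5 the same sort and reporters gave 85 called genes of 12984 tested (0.655%), from other samples and in a table that was normalized separately. Whether the phase difference changed with age cannot be tested without values per sample, so the phase differences only stand side by side. The authors did test the ages against each other within each phase. Genes of mitosis were higher in S/G2/M at both ages. Plk1 had 17.9 and 76.1 FPKM in G1 and S/G2/M at E10.5, Top2a had 51.5 and 128 FPKM, and Ube2c had 238 and 635 FPKM, and each of these 3 was also called there. The median of the mitotic list was 1.03 at E10.5 and 0.99 at E11.5, with 7 of 63 members risen at E10.5 and 3 at E11.5. Of all 12984 genes tested at E10.5, 25 rose. Cdca5, from outside the list, had 18.6 and 29.9 FPKM at E10.5 and was not called there. Ccnb2, which encodes cyclin B2, had a log2 fold change of 1.11 at E10.5 and 0.29 at E11.5. Histone genes had a median of 1.25 at E10.5 and 0.84 at E11.5, with 7 of 57 members risen at E10.5 and 0 at E11.5.

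Progenitor genes that rose at E11.5 were not called at E10.5. Hlf had 3.04 and 2.91 FPKM at E10.5, Adgrg1 had 27.1 and 26.6 FPKM, Dnmt3b had 13.7 and 20.5 FPKM, and Tox had 7.07 and 3.39 FPKM. For Adgrg1 and Hlf the phases were nearly equal there. For Hlf the G1 level was about the same at both ages (3.04 FPKM at E10.5, 3.47 FPKM at E11.5), and the S/G2/M cells at E11.5 were the high group at 17.1 FPKM. Between ages, Hlf passed the authors' test in S/G2/M (q = 0.0031) and not in G1 (q = 0.864) in their deposited tables. Mpo was higher in S/G2/M at both ages, at 14.5 and 41.6 FPKM at E10.5 without passing (q = 0.0893 in the authors' deposited table). The median of the progenitor list was 0.06 at E10.5 and 0.38 at E11.5.

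Macrophage and C1q genes had lower values in both phases in the separately normalized E10.5 table. C1qb had 84.5 and 54.7 FPKM at E10.5 in G1 and S/G2/M, against 645 and 158 FPKM at E11.5. Cd68 had 37.0 and 18.4 FPKM, and Csf1r had 29.4 and 18.7 FPKM, and none of these 3 was called there. In the authors' test between ages, all 3 were higher at E11.5 in G1, each with q = 0.0027 in their deposited table. In S/G2/M, C1qb (q = 0.0055) and Csf1r (q = 0.0031) passed that test as well, and Cd68 (q = 0.163) did not. The summed level of the macrophage list at E10.5 was 951 FPKM in G1 against 654 FPKM in S/G2/M, with a median difference of -0.65 against -1.31 at E11.5. Globin genes differed in direction, with Hba-x at 7462 and 10168 FPKM at E10.5 and a list median of 0.19, against -2.13 at E11.5. At E10.5, however, no globin gene was called or had an unadjusted p below 0.05 in the authors' deposited table. Neuronal genes had a median of -2.03 at E10.5, where 15 of 35 tested members fell, against 60 of all 12984 tested genes. Ncan fell at both ages, with 17.5 and 2.21 FPKM at E10.5.

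Of the 17 genes risen at E11.5, 12 were tested at E10.5, 9 of them in the same direction and 3 called. Of the 70 fallen, 54 were tested, 43 in the same direction and 1 called, which was Ncan. Among the 11 risen genes above 0 in all 4 groups the median log2 fold change was 1.86 at E11.5 and 0.68 at E10.5, and among the 47 such fallen genes it was -1.88 and -0.63. These genes were chosen on the E11.5 values and not on the E10.5 values, and how much of the gap between the medians comes from that choice was not tested.

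**Figure D4:**
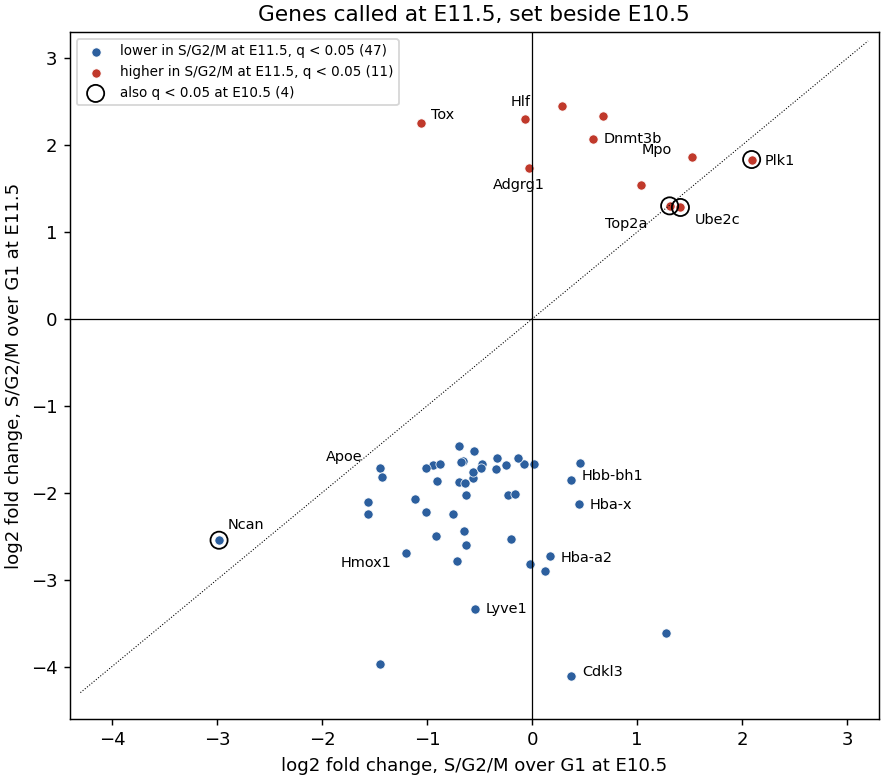
Log2 fold change, S/G2/M over G1, at E10.5 on the x axis and E11.5 on the y axis for the 11 risen (red) and 47 fallen (blue) genes called at E11.5 and above 0 in all 4 groups; the dotted line marks equal values and circles the 4 genes also called at E10.5. The mitotic genes Plk1, Top2a and Ube2c lie near the line, Hlf and Adgrg1 lie close to 0 at E10.5, and the globin genes lie right of 0 at E10.5 and below 0 at E11.5.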

How the data were processed

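RNA of cells sorted from mouse AGM was sequenced. The submitters' processing notes list TopHat, Cuffdiff, CASAVA 1.4 and mm10, without their roles, whereas bowtie 0.12.2 and mm8 stand in the labels' protocols. Deposited coordinates, which count starts from 0, are printed as mm10 counting from 1.

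The authors deposited, per the file headers, 1 FPKM value per gene and group, and 1 p-value and q-value per gene. The tables call the S/G2/M group G2, read here as S/G2/M. No column holds a single sample, so no SD is given, the depth behind each value is unknown, and no source used here says how the 3 samples entered the authors' test. The authors did not test 11717 genes, and 7 had too many reads. A Benjamini-Hochberg adjustment of the deposited p-values gave their q-values within 5.27e-07. The authors marked 111 genes, up to q = 0.0839, in their deposited table, and 0.05 was used here.

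Fold changes were computed as the ratio of the FPKM values. Lists were described by counts and medians of members above 0 in both groups, in Python 3.11.15 with pandas 2.3.3 and numpy 2.4.6, and the calculation was tested on simulated data. Called genes could be named, with uncalled list members of high FPKM or an unadjusted p under 0.05 and a fixed set of cluster genes. The members and lists were chosen with earlier results of these data known. Some genes the rule selected are not reported here. The lists were matched by symbol and older symbols. Alternatives were other thresholds, FPKM minimums of 1 and 5, a pseudocount of 1, centring and the table in the other order.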

Additional observations from a re-analysis of the deposited data

How the results depend on the processing

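No paired analysis was possible because the deposited tables hold 1 value per group, and for the same reason no sample could be left out in turn. At a q under 0.01 the authors' Cuffdiff test gives 0 risen and 0 fallen genes, since the smallest q in the authors' deposited table is 0.0102, shared by 61 genes at p = 5e-05, while 412 and 615 genes have an unadjusted p below 0.05. At q under 0.085 there were 26 risen genes, and the mitotic list had 6. Where the higher group had to reach 5 FPKM, or without the genes listed at 0, 11 risen genes remained. The numbers of fallen genes under the settings other than q under 0.01 lay between 47 and 85, within 1.5 times the 70. Of 58 called genes above 0 in both groups, none changed sign with a pseudocount of 1 FPKM, after centring or in the table in the other order, and 8 were no longer called in the last. Of 132 recomputed list medians 9 moved by 0.2 or more and 5 changed sign. At a minimum of 5 FPKM in the higher group these were the erythroid (-0.18 to 0.13), granulocyte (-0.38 to 0.32) and germ cell lists (0.41 to -0.26), and after centring those of G1 regulators (-0.06 to 0.0023) and glycolysis (-0.05 to 0.011). Depth, and what it limits, is unknown.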
